A study of Mus musculus with 12 samples.

Results

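The cortical hem is the signalling centre at the medial edge of the embryonic cortex, and the choroid plexus epithelium lies next to it at the dorsal midline. This account follows 9 genes that mark these structures, Wnt3a, Wnt2b, Wnt5a, Wnt8b, Lmx1a, Rspo2, Bmp4, Msx1 and Ttr, which were chosen by name as midline signals and choroid plexus markers. All 9 were found among the 54735 gene symbols of the deposited tables. The study profiled total RNA of the dissected pallium, the dorsal telencephalon that forms the cortex, from C57/Bl6 mouse embryos at E13.5, with 4 libraries in each of 3 genotypes. It asks what loss of Rnu11, which encodes the U11 small nuclear RNA of the minor spliceosome, changes in the developing cortex, and which of these changes remain when Trp53, the gene for p53, is deleted too. Control embryos were Rnu11wt/flx::Trp53wt/wt::Emx1-Cre+, so they carried 1 floxed Rnu11 allele. Embryos called cKO were Rnu11flx/flx::Trp53wt/wt::Emx1-Cre+, and embryos called dKO were Rnu11flx/flx::Trp53flx/flx::Emx1-Cre+. All groups carry Emx1-Cre, a recombinase driven from a gene of pallial progenitors, so the controls are heterozygous for the Rnu11 deletion. Whether hem and choroid plexus cells lost Rnu11 was not measured here. The labels do not say whether a library held the pallium of 1 embryo, and each library is called an embryo for short; p-values measure the spread between these libraries.

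The hem secretes Wnt and Bmp ligands that pattern the hippocampal field, and it produces Cajal-Retzius neurons. Wnt ligands signal through Frizzled and Lrp receptors to the transcription factors of the Tcf and Lef family, and R-spondins strengthen this signal by protecting the receptors from removal. Bmp ligands signal through Smad proteins, raise Id and Msx genes, and are needed for choroid plexus epithelium to form.

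In the mm10 assembly named in the submitters' processing notes, and with GENCODE M21 positions on the same build, Rspo2 is at chr15:43020794-43170826, Bmp4 at chr14:46383520-46390669, Wnt3a at chr11:59248033-59290752 and Lmx1a at chr1:167689237-167848741. Wnt2b is at chr3:104945272-104961921, Wnt5a at chr14:28504750-28527448, Wnt8b at chr19:44493472-44514273 and Msx1 at chr5:37820485-37824583. Bmp4 overlaps the opposite-strand genes Gm15217 and Gm15222, Wnt5a overlaps the antisense gene Gm2670, and Wnt2b holds the intronic transcript Gm43846. The treatment of strand in the counting is not given in the sources used here, so reads of these pairs may be mixed. Gm15222 was listed at no more than 0.297 TPM in any embryo and Gm15217 at no more than 0.124 TPM.

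RefSeq promoters on GRCm38.p6 were matched for 6 of the 9 genes (not Wnt5a, Rspo2 or Ttr), and the 250 bases before the start site are shown for Wnt3a and Bmp4 because both genes rose in the cKO embryos. Capitals mark the letters GGCGCC, a motif that Bmp-regulated Smads can bind. The Wnt3a window is chr11:59290752-59291001 and the Bmp4 window chr14:46390670-46390919, both on the minus strand and written from 5′ to 3′.
Wnt3a: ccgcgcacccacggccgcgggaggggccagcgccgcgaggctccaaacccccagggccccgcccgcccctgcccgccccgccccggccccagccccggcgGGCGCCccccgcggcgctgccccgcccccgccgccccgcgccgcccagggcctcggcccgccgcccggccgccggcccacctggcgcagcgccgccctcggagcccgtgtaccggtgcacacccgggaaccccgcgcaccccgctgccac
Bmp4: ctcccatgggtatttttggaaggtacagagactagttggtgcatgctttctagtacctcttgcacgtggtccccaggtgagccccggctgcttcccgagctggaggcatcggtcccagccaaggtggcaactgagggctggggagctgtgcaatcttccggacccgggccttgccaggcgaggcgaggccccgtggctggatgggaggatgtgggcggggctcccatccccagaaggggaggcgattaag
Of the bases shown, 87.6% are G or C in Wnt3a and 63.2% in Bmp4. The search covered both strands for GGCGCC and for the Tcf and Lef motif spelled CTTTGNN with AA, AT, TA or TT as its last letters. GGCGCC occurred in Wnt3a at position -150 counted back from the start site, and at positions -187 and -143 in Wnt2b. So 2 of the 6 promoters held it, against 9.59% of 32851 promoters of the same length. GGCGCC is made of G and C only, and these 2 windows had the most G or C, 87.6% in Wnt3a and 80.8% in Wnt2b. The other windows had 48.4% to 68%. The 32851 promoters were not matched for G and C content, so no enrichment can be read from these shares. The RefSeq start sites of Wnt2b and Lmx1a lie 212 and 321 bases inside the GENCODE genes. Both Wnt2b positions are therefore within the gene as GENCODE draws it. None of the 6 held the Tcf and Lef motif, against 14.8% of all promoters.

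Transcript abundance was deposited as TPM, a length-scaled value that sums to 1000000 in each library and keeps no sequencing depth, so no counting error is given. The 2 most abundant gene symbols took 43.4% to 52.4% of a library, and nuclear protein-coding genes 14.4% to 19.99%. As deposited, the median gene stood 0.24 higher in cKO than in control and 0.25 lower in dKO than in cKO on the log2(TPM + 1) scale. Each library was therefore divided by a median-ratio factor, between 0.892 and 1.30, before testing, which brought these medians to 0.05 and -0.04. Per-embryo values below are TPM as deposited, and folds and log2 changes are from the scaled values. Called means a Benjamini-Hochberg adjusted p under 0.05 in limma, adjusted over the 14077 genes that averaged 0.5 TPM or more. Some counts of 0 calls are followed by the count at an unadjusted limma p under 0.05. The share of all genes under that unadjusted rule was not counted, so those counts have no background. Rnu11 stood between 521 and 724 TPM in controls, between 115 and 159 in cKO and between 142 and 199 in dKO, and Trp53 between 0.920 and 1.49 TPM in dKO against 2.63 or more in every other embryo. The pallium markers Emx1, Pax6, Tbr1, Eomes, Neurod2 and Neurod6 were present in every embryo, with Neurod6 at 50.3 TPM or more.

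The midline genes differed widely in level. Ttr, which encodes the thyroid hormone carrier secreted by choroid plexus epithelium, averaged 113 TPM over the 12 embryos, ranging from 35.04 to 267. Rspo2 averaged 7.89 TPM and Msx1 3.84 TPM. Wnt2b, Wnt3a, Wnt8b, Bmp4 and Wnt5a followed with averages from 2.14 down to 1.54 TPM and overlapping ranges, so their order was not larger than the spread. Lmx1a was the lowest of the 9, with an average of 0.868 TPM. All 9 passed the filter.

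**Figure D1:**
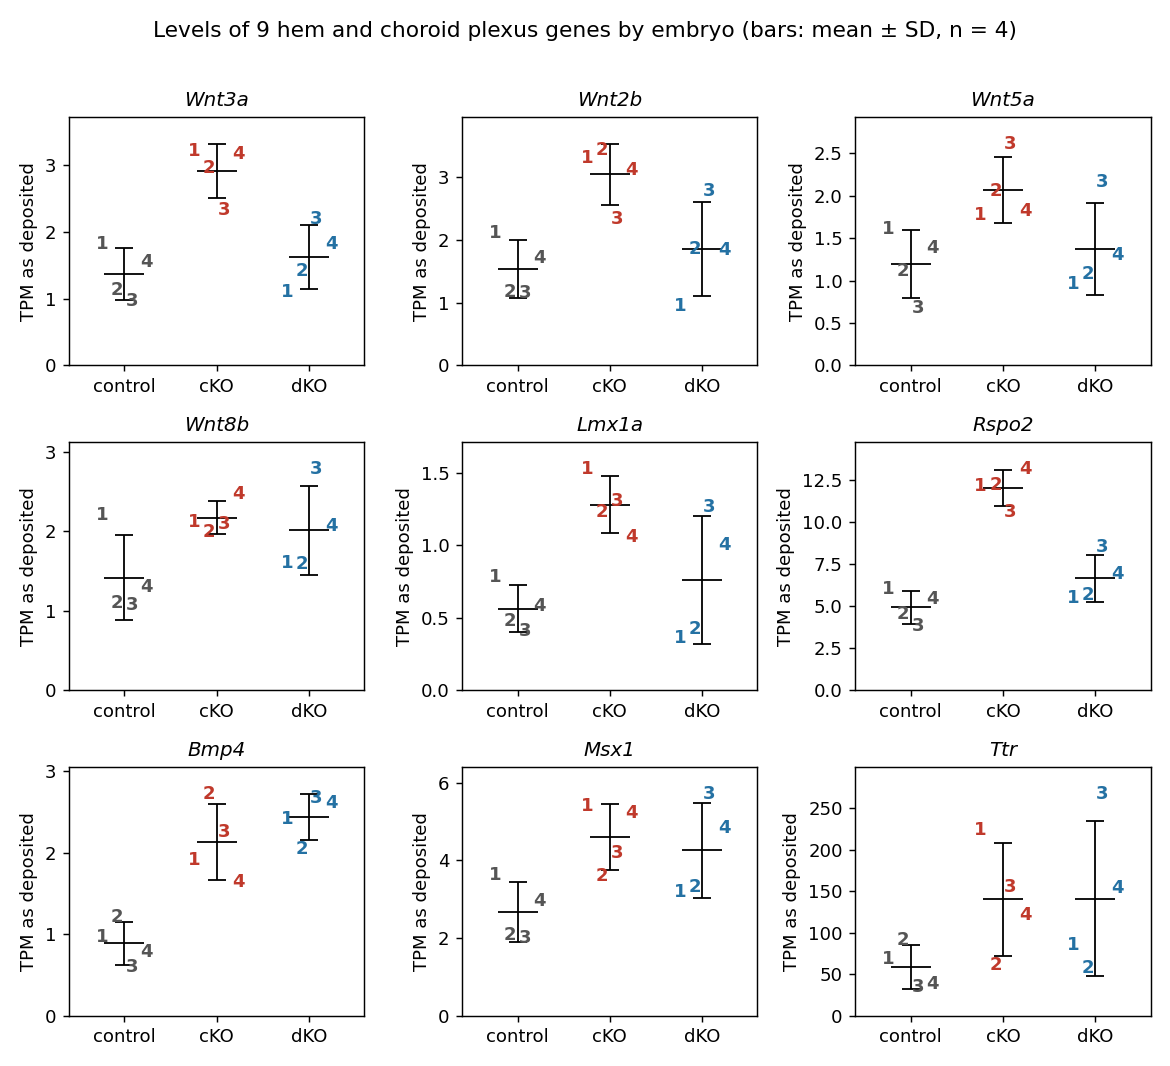
TPM as deposited (vertical axes from 0) of the 9 genes in each of the 12 embryos, drawn as the embryo's number in its group, with the group mean and SD (n = 4). The 4 cKO embryos stand above all controls for Rspo2 and Wnt3a, whereas for Bmp4 the dKO embryos also stand above all controls.

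In the cKO pallium 3 of the 9 genes rose, the signals Rspo2, Bmp4 and Wnt3a. Rspo2 increased 2.04-fold, Bmp4 2.01-fold and Wnt3a 1.79-fold in cKO against control. In bulk tissue more cells of a type and more RNA per cell cannot be told apart. The log2 change was positive for all 9 genes, with a median of 0.51, where 61.3% of all genes tested were positive and their median was 0.05. All 9 were also positive as deposited and after protein-coding rescaling, which sets the summed TPM of protein-coding genes equal, where 89.0% and 75.6% of all genes were positive. Genes called higher made up 5.59% of all genes tested in this comparison and 3 of these 9, and 0 of the 9 were called lower (0 also at an unadjusted limma p under 0.05), where the background is 2.15%.

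R-spondin 2 is a secreted amplifier of Wnt signalling made by the hem. Rspo2 stood at 6.02, 4.53, 3.83 and 5.43 TPM in controls 1 to 4, at 12.1, 12.2, 10.6 and 13.2 in cKO 1 to 4, and at 5.48, 5.71, 8.54 and 6.93 in dKO 1 to 4. Every cKO embryo was higher than every control and every dKO embryo, and dKO embryos overlapped the controls. The log2 change in cKO against control was 0.92 ± 0.14 (SE; limma adjusted p = 0.00217), and the call held in all 19 alternatives, with adjusted p from 0.000296 to 0.0147. Rspo2 fell by 0.53 ± 0.14 (SE) from cKO to dKO (limma adjusted p = 0.0421), a ratio of 0.676. Against control the dKO change was 0.39, with a 95% interval from 0.08 to 0.70 and a limma adjusted p of 0.109.

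The lower level of Rspo2 in dKO than in cKO was a narrow call. Leaving out control 2, control 4, any cKO embryo, or dKO 1, 2 or 4 ended it, with limma adjusted p from 0.0536 to 0.102 and log2 changes from -0.64 to -0.44 over all embryos left out. It was also lost without a filter (0.0784) and in the fit of the 2 groups alone (0.0588), while the range over all alternatives ran from 0.00214 to 0.102.

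Bmp4 encodes a ligand of the dorsal midline that promotes choroid plexus fate. Bmp4 stood at 0.964, 1.22, 0.603 and 0.780 TPM in controls 1 to 4, at 1.91, 2.72, 2.25 and 1.64 in cKO 1 to 4, and at 2.41, 2.05, 2.68 and 2.61 in dKO 1 to 4. As deposited every mutant embryo of both genotypes was higher than every control, and after scaling cKO 4 fell below control 2. The log2 change was 0.57 ± 0.14 in cKO (SE; limma adjusted p = 0.0287) and 0.91 ± 0.14 in dKO (SE; limma adjusted p = 0.00253), a 2.77-fold increase in dKO. Bmp4 was the only one of the 9 genes that was called in dKO against control, where 8.92% of all genes tested were called (4.18% higher), and this call held in all 19 alternatives, with adjusted p from 0.00186 to 0.0120. Between dKO and cKO the difference was 0.33, with a 95% interval from 0.03 to 0.64 and a limma adjusted p of 0.164. The antisense gene Gm15222 averaged 0.0166 TPM over the controls, 0.110 over cKO and 0.186 over dKO embryos, so it was higher in the same groups at a far lower level.

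Wnt3a, the hem ligand needed for hippocampal growth, stood at 1.82, 1.13, 0.960 and 1.55 TPM in controls 1 to 4, at 3.22, 2.97, 2.33 and 3.17 in cKO 1 to 4, and at 1.09, 1.42, 2.20 and 1.81 in dKO 1 to 4. The cKO embryos did not overlap the controls, whereas the dKO embryos did. The log2 change in cKO was 0.56 ± 0.15 (SE; limma adjusted p = 0.0410), and in dKO 0.17 ± 0.15 (SE; limma adjusted p = 0.528). Between dKO and cKO Wnt3a differed by -0.39, with a 95% interval from -0.72 to -0.07 and a limma adjusted p of 0.127.

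The cKO calls of Wnt3a and Bmp4 were lost when single embryos were left out. For Wnt3a this held for control 2, 3 or 4 and for each cKO embryo, with limma adjusted p from 0.0635 to 0.119, and for Bmp4 for control 1, 3 or 4 and cKO 1, 2 or 3, with 0.0514 to 0.0892. Their log2 changes then stayed between 0.47 and 0.65 for Wnt3a and between 0.49 and 0.68 for Bmp4. Without a filter their adjusted p was 0.0863 and 0.0640; over all alternatives it ran from 0.00424 to 0.119 for Wnt3a and from 0.00203 to 0.0892 for Bmp4.

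The other 3 Wnt ligands were not called. Wnt2b, a ligand of the hem, stood at 2.10, 1.17, 1.15 and 1.70 TPM in controls 1 to 4, at 3.30, 3.43, 2.33 and 3.11 in cKO 1 to 4, and at 0.949, 1.86, 2.78 and 1.84 in dKO 1 to 4. Its cKO embryos did not overlap the controls, with a log2 change of 0.51 ± 0.19 (SE) that was not called in limma (adjusted p = 0.123). Wnt5a, which acts largely outside the beta-catenin branch, ranged from 0.672 to 1.61 TPM in control, from 1.78 to 2.62 in cKO and from 0.954 to 2.16 in dKO. Wnt8b, which also marks the hippocampal primordium, ranged from 1.07 to 2.20 TPM in control, from 2.00 to 2.48 in cKO and from 1.59 to 2.79 in dKO. The groups overlapped after scaling for Wnt5a and Wnt8b, whose limma adjusted p in cKO against control was 0.289 and 0.357. In dKO against control the log2 changes of Wnt2b, Wnt5a and Wnt8b were 0.18, 0.13 and 0.35, with limma adjusted p from 0.176 to 0.718. The Wnt8b value passed in dKO only without control 1, at 0.0466 with a log2 change of 0.49, and over its alternatives the adjusted p ran from 0.0466 to 0.377.

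Lmx1a and Msx1 encode homeodomain transcription factors of the hem and roof. Lmx1a, which keeps hem and choroid plexus progenitors from becoming cortex, stood at 0.782, 0.482, 0.409 and 0.582 TPM in controls 1 to 4, at 1.53, 1.23, 1.31 and 1.05 in cKO 1 to 4, and at 0.363, 0.421, 1.26 and 1.00 in dKO 1 to 4. All cKO embryos were higher than all controls, and the dKO embryos split into 1 and 2 at the control level and 3 and 4 near the cKO level. Lmx1a was 1.93-fold higher in cKO, a log2 change of 0.43 ± 0.17 (SE) on a scale that understates low genes, and it was not called (limma adjusted p = 0.151). Msx1, a target of Bmp signalling, ranged from 2.00 to 3.62 TPM in control, from 3.60 to 5.40 in cKO and from 3.19 to 5.71 in dKO. Its log2 changes were 0.43 ± 0.19 in cKO and 0.55 ± 0.19 in dKO (SE), with limma adjusted p of 0.199 and 0.0950, and the groups overlapped.

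Ttr lies at chr18:20665280-20674321. Its level stood at 68.8, 90.7, 35.04 and 38.3 TPM in controls 1 to 4, at 224, 60.4, 155 and 121 in cKO 1 to 4, and at 85.5, 57.0, 267 and 153 in dKO 1 to 4. The highest and lowest embryos of a group differed 2.59-fold in control, 3.71-fold in cKO and 4.69-fold in dKO, and all groups overlapped. The mean was 2.05-fold higher in cKO and 2.46-fold higher in dKO than in control. These differences were within the spread of embryos, with log2 changes of 0.96 (95% interval from -0.20 to 2.12) and 1.16 (from -0.0027 to 2.32) and limma adjusted p of 0.305 and 0.202. The intervals include no change as well as a change of more than 2 on the log2 scale.

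**Figure D2:**
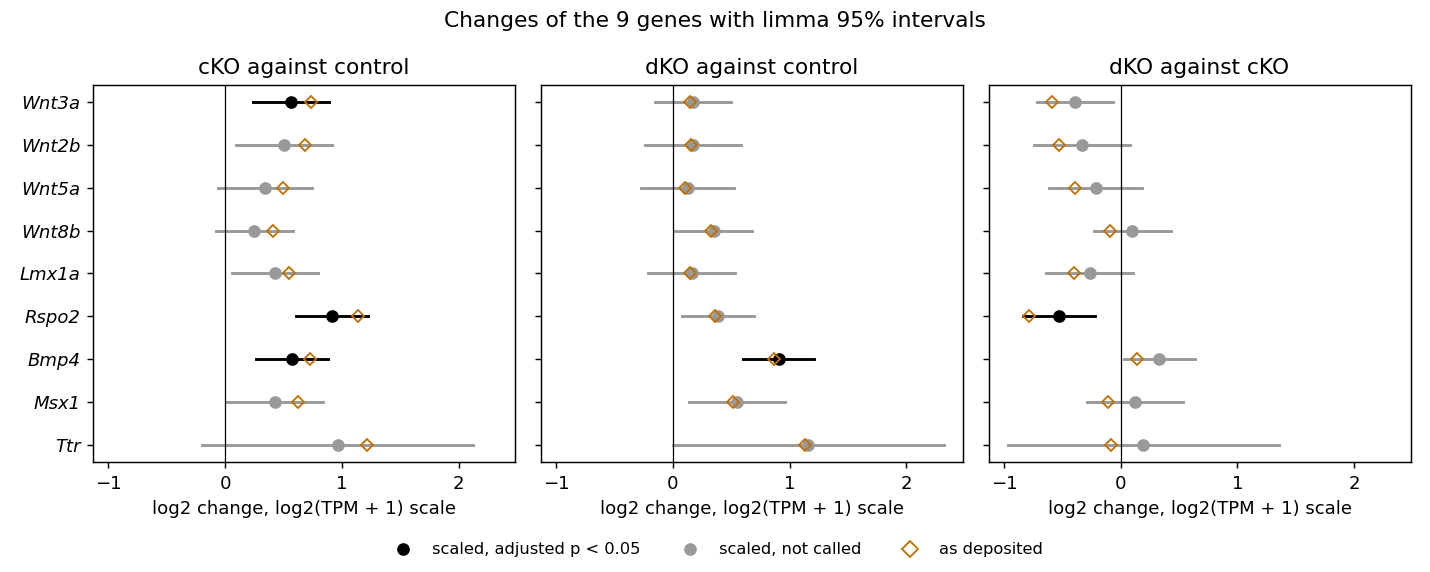
Log2 change of the 9 genes in the 3 comparisons (horizontal axis, log2(TPM + 1) scale), with limma 95% intervals after scaling and, as open diamonds, the change in TPM as deposited. Rspo2, Bmp4 and Wnt3a are called in cKO against control, Bmp4 in dKO against control and Rspo2 in dKO against cKO.

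With Trp53 also deleted, Rspo2 was lower than in cKO and overlapped the controls, whereas Bmp4 stood above every control. Of the 9 genes 1 was called in dKO against cKO, where 8.03% of all genes tested were called (6.08% lower). The comparisons of cKO and dKO with control share the 4 control libraries, so the changes of a gene in the 2 comparisons are not independent.

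The scaling decided how many of the 9 genes were called in cKO. In TPM as deposited 7 of the 9 were called higher, against a background of 33.6%, with Wnt2b, Wnt5a, Lmx1a and Msx1 added and limma adjusted p from 0.0162 to 0.0386 for these 4. In dKO against cKO 3 of the 9 were then called lower, against a background of 38.0%. After protein-coding rescaling, 3 of the 9 were called against a background of 11.8% higher.

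After scaling, 4 of the 9 genes (Wnt3a, Wnt2b, Lmx1a and Rspo2) had all cKO values above all control values, which held for 13.2% of all genes tested. In dKO against control this applied to Bmp4 alone, with a background of 6.98%, and in dKO against cKO Rspo2 alone was separate and lower, with a background of 10.6%. As deposited the cKO count was 6 of 9, with a background of 32.7%.

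In the dKO and control groups 1 embryo was the highest or the lowest for all 9 genes. In dKO all 9 genes were highest in embryo 3, which was the highest of its group for 27.1% of all genes tested. Among controls embryo 3 was lowest for all 9 genes, against 31.4% of all genes, and embryo 1 was highest for 7 of the 9, against 36.3%. In dKO embryo 1 was lowest for 6 of the 9 genes and embryo 2 for the other 3. The cKO embryos had no such common order: after scaling embryo 1 was highest for 6 genes (24.8% of all genes), embryo 2 for 1 and embryo 3 for 2, and the lowest was embryo 2 for 3 genes, embryo 3 for 2 and embryo 4 for 4. Bmp4 varied less with the dKO embryo than the other genes, from -0.19 to 0.12 around its group mean on the log2 scale, where Lmx1a varied from -0.36 to 0.42 and Ttr from -1.07 to 1.18. Without dKO 3 the log2 change of Ttr in dKO against cKO turned from 0.19 to -0.20.

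**Figure D3:**
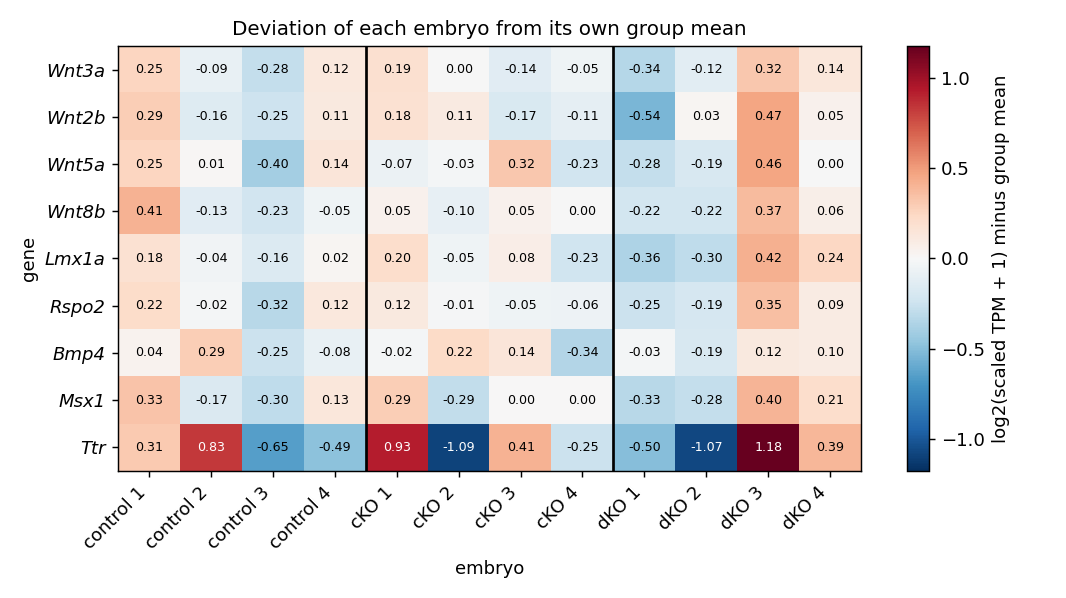
Deviation of each embryo (columns) from the mean of its own group, as log2(scaled TPM + 1), for the 9 genes (rows), with red above and blue below the mean. The column of dKO embryo 3 is above its group mean for all 9 genes, and that of control embryo 3 below for all 9.

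Choroid plexus genes shared some of these embryos. Of a list of 27 such genes, 19 passed the filter, and all 19 were highest in dKO embryo 3 within their group. In cKO 16 of the 19 were highest in embryo 1 and 16 lowest in embryo 2, the embryos with the highest and the lowest Ttr, where the shares over all genes were 24.8% and 20.3%. Among controls embryo 2 was highest for 12 of the 19 (28.9% of all genes) and embryo 1 for 5 (36.3%). In dKO embryo 2 was lowest for 16 (22.7%). The orders in these 2 groups thus differed from that of most midline genes. The summed TPM of the list ranged from 44.8 to 70.1 in control, from 76.5 to 112 in cKO and from 55.9 to 118 in dKO as deposited. After scaling the groups overlapped, at 45.9 to 71.8, 66.0 to 107 and 59.2 to 129. Of the 27 genes 3 were listed at 0 in some embryos, Kl, Prlr and Cldn2, and Kl stood at no more than 0.0518 TPM. Others were well above 0, such as Folr1 and Calml4, which averaged 5.72 and 1.74 TPM over the 12 embryos. Otx2, a transcription factor of choroid plexus epithelium, had a scaled mean of 4.96 TPM (SD 1.25) in control, 9.06 (SD 2.47) in cKO and 10.3 (SD 4.73) in dKO. These means are over 4 embryos each, and Otx2 was not called (limma adjusted p = 0.129 and 0.0833).

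In cKO against control 19 of the 19 choroid plexus genes had a positive log2 change under each of the 3 scalings, with a median of 0.38 after the median-ratio scaling. Of all genes 61.3% were positive after that scaling, 89.0% as deposited and 75.6% after protein-coding rescaling. Among the 19, 1 was called higher, against a background of 5.59%. That gene was Gmnc, which directs formation of multiciliated cells, at 2.09, 1.80, 1.59 and 2.15 TPM in controls 1 to 4, 5.36, 4.84, 5.59 and 5.86 in cKO 1 to 4, and 3.02, 1.70, 5.99 and 3.79 in dKO 1 to 4. Its log2 change was 0.95 ± 0.23 (SE) in cKO (limma adjusted p = 0.0270) and 0.62 ± 0.23 (SE) in dKO (limma adjusted p = 0.113). In dKO against control 0 of the 19 were called by limma (6 at an unadjusted p under 0.05, all higher, with no background counted for that rule). Of the 19, 18 were positive (51.6% of all genes) and the median was 0.37.

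Other genes of the Wnt pathway were called in both directions in cKO, where the background is 5.59% higher and 2.15% lower. The 15 other Wnt ligands gave 0 higher and 1 lower call in cKO among the 4 that passed the filter, and the 22 receptors, R-spondins and secretion genes gave 1 higher and 1 lower among 15. Rspo3, the R-spondin that the hem also makes, rose 1.77-fold in cKO after scaling, from a scaled mean of 9.43 TPM (SD 1.30) to 16.7 (SD 0.685) over 4 embryos each (limma adjusted p = 0.0171), and averaged 12.02 (SD 3.90) in dKO. Dkk3, a member of the Dickkopf family, rose 1.65-fold in cKO (limma adjusted p = 0.0474). It was the only called gene among 5 of the antagonist list that passed the filter, and its action on Wnt signalling was not tested. Wnt7a, a ligand of cortical progenitors, fell in both mutants, with log2 changes of -0.35 and -0.34 (limma adjusted p = 0.0377 and 0.0408), and the receptor gene Fzd9 fell in cKO by 0.54 (limma adjusted p = 0.0117). As deposited, the falls of Wnt7a and Fzd9 in cKO were not called (limma adjusted p = 0.259 and 0.0833), nor was that of Wnt7a in dKO (0.0942).

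Feedback targets of canonical Wnt signalling were not called in either mutant against control. Of 12 listed, 7 passed the filter, with a median log2 change of 0.15 in cKO and 0.07 in dKO, and 1 had an unadjusted limma p under 0.05 in each comparison. Axin2, the general target of this pathway, had a scaled mean of 3.63 TPM (SD 1.43) in control, 4.00 (SD 0.439) in cKO and 4.21 (SD 1.32) in dKO, over 4 embryos each (limma adjusted p = 0.711 and 0.638). Nkd1, a feedback inhibitor, had a log2 change of -0.53 from cKO to dKO (limma adjusted p = 0.0236).

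On the Bmp side, target genes were called in opposite directions. Id1 and Id3, inhibitors of helix-loop-helix factors that Bmp signals raise, rose in cKO 1.99-fold and 1.84-fold (limma adjusted p = 0.00548 and 0.0261). Id1 stood at 2.30, 1.47, 1.42 and 1.69 TPM in controls 1 to 4, 3.34, 4.68, 4.18 and 4.09 in cKO 1 to 4, and 2.03, 2.45, 2.97 and 3.05 in dKO 1 to 4, and was also called in dKO (log2 change 0.45; limma adjusted p = 0.0494, and 0.0764 as deposited). Id4, which is abundant in cortical progenitors, fell in both mutants by 0.88 and 0.60 on the log2 scale (limma adjusted p = 0.000406 and 0.00588). Id2 fell by 0.51 from cKO to dKO (limma adjusted p = 0.0287). Among other Bmp ligands, Bmp5 rose 2.15-fold in cKO after scaling, from a scaled mean of 0.497 TPM (SD 0.148) to 1.07 (SD 0.233) over 4 embryos each (limma adjusted p = 0.0435). Among 9 receptor and Smad genes and 4 antagonists that passed the filter, limma called 0 in any comparison. In cKO 1 of the 9 and 1 of the 4 had an unadjusted p under 0.05, in dKO 1 and 0, and in dKO against cKO 2 and 1.

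Transcription factors that border the hem changed in few cases. Emx1, a factor of the pallium whose promoter also drives the Cre, fell to 0.685 of control in cKO and 0.700 in dKO (limma adjusted p = 0.0425 and 0.0449), and neither was called as deposited (0.228 and 0.1003). Lhx2, which keeps cortical progenitors from becoming hem, averaged 28.6 TPM (SD 6.25) in control, 24.6 (SD 4.99) in cKO and 23.7 (SD 2.51) in dKO, over 4 embryos each (limma adjusted p = 0.0553 and 0.347). Over the Wnt, Bmp, medial and choroid plexus lists together, 10 of 85 tested genes were called in cKO (11.8%, 6 higher and 4 lower; 7.74% of all genes tested), 5 in dKO (5.88%; 8.92% of all) and 2 in dKO against cKO (2.35%; 8.03% of all). Leaving out 1 embryo gave from 3 calls (without control 3) to 12 in cKO.

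**Figure D4:**
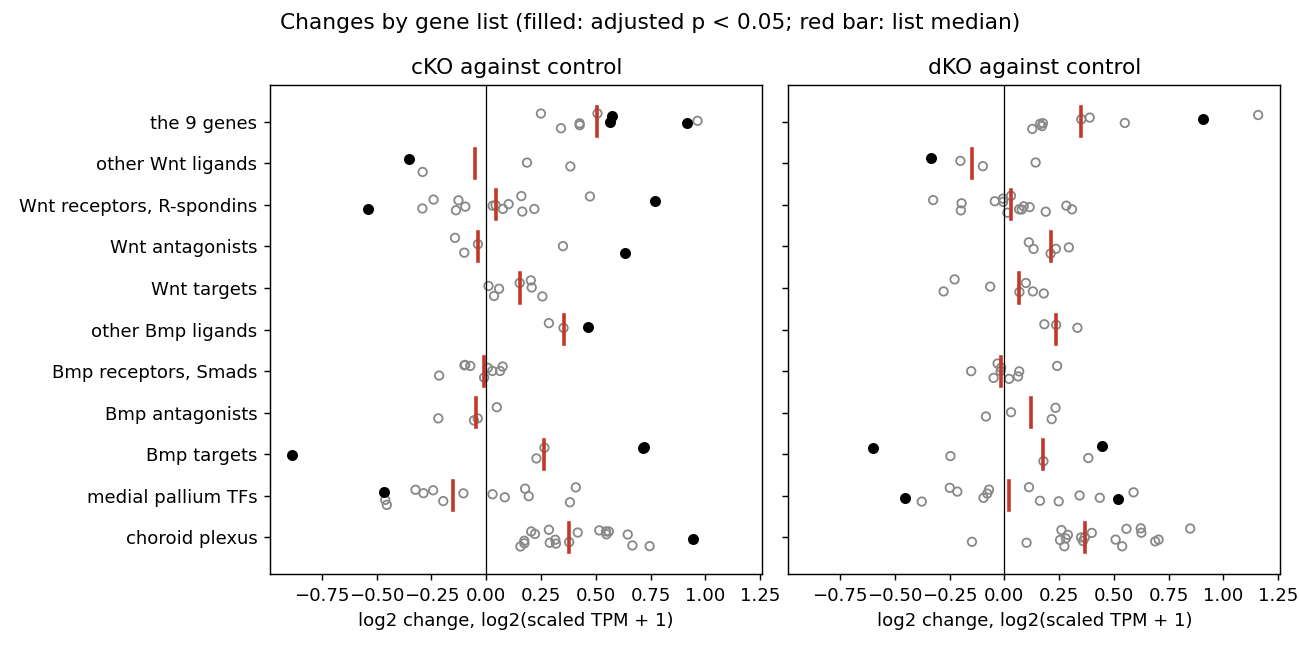
Log2 change of each tested gene (points, horizontal axis on the log2(scaled TPM + 1) scale) by gene list, in cKO and in dKO against control; filled points are called and red bars are list medians. The 9 midline genes and the choroid plexus list have medians of 0.51 and 0.38 in cKO, while Bmp receptors and Smads centre near 0.

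Markers of neighbouring tissues were examined in the same libraries. The summed TPM of 13 meningeal genes ranged from 35.3 to 57.4 in control, from 56.8 to 71.3 in cKO and from 50.6 to 71.7 in dKO as deposited, and from 36.2 to 58.8, 52.6 to 61.1 and 53.7 to 78.2 after scaling. Of the 11 tested, Col3a1 and Lum, which encode matrix proteins of the meninges, were called higher in dKO (background 4.18%). Their limma adjusted p was 0.0280 and 0.0295, and for Lum 0.0569 as deposited. In cKO 0 of the 11 were called higher, and 6 had an unadjusted limma p under 0.05, all higher, with no background counted for that rule. Control embryo 1 was highest for 10 of these 11 genes and control embryo 3 lowest for all 11, the same embryos that were highest and lowest for most midline genes. In the mutants the order differed in part, with cKO embryo 3 highest for 7 of the 11 (32.6% of all genes). In dKO embryo 3 was highest for 6 (27.1%) and embryo 4 for 4 (18.2%). Of 7 blood and vessel genes, 5 had a positive log2 change in cKO and 2 were called (background 5.59% higher), Cldn5 and Kdr, which rose 1.62-fold and 1.67-fold (limma adjusted p = 0.00880 and 0.0214). As deposited, ventral telencephalon genes summed to 1.76 to 2.57 TPM in control, 3.81 to 5.46 in cKO and 1.74 to 3.90 in dKO. After scaling these sums were 1.80 to 2.81, 2.94 to 4.70 and 1.83 to 4.13. Of the 11 ventral genes 1 passed the filter, Dlx1, and it was not called in cKO (limma adjusted p = 0.189). Diencephalon genes summed to between 5.83 and 10.1 TPM over all embryos as deposited, with Lhx9 alone averaging 6.08 TPM. Gbx2, Olig3, Foxb1, Rax and Nkx2-1 were listed at 0 in some embryos. The part of these tissues in the levels of the midline genes was not tested.

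Of 7 markers of the pallium, 2 fell in cKO (background 2.15%) and 4 in dKO (4.74%). Eomes, a marker of intermediate progenitors, fell by 0.39 in cKO and fell by 0.54 in dKO on the log2 scale (limma adjusted p = 0.0229 and 0.00370), the former not called as deposited (0.300). Neurod2 and Neurod6, transcription factors of cortical neurons, fell by 0.58 and fell by 0.60 in dKO (limma adjusted p = 0.0301 and 0.0395). In cKO Neurod2 had a positive log2 change of 0.22 (limma adjusted p = 0.412). Of 6 Cajal-Retzius genes tested, 3 rose in cKO (background 5.59%) and 2 in dKO (4.18%). Reln, which encodes the secreted protein of these neurons, rose 2.02-fold in cKO (limma adjusted p = 0.0121) with Ebf3 and Nhlh2, and was lower in dKO than in cKO (limma adjusted p = 0.0422). Ebf2 and Calb2 rose in dKO, 2.02-fold and 2.21-fold (limma adjusted p = 0.00766 and 0.00824).

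Among 11759 genes, those most like each member over the 12 libraries were ranked by Pearson's r of log2(scaled TPM + 1), which also carries the group differences and the shared embryos. Wnt3a was most like Dkk3 (r = 0.98), Rspo3 (0.96) and Rspo2 (0.95), and Rspo2 was most like Gas6, Rspo3 and Ctsc (0.96 to 0.97). Ttr was most like Calml4, Slc6a15 and Folr1 (0.97 to 0.98), of which Calml4 and Folr1 are on the choroid plexus list. Msx1 had Clybl, Otx2 and Oscp1 (0.94 to 0.97), Wnt2b had Add1, Mcu and Dkk3 (0.96), and Wnt8b had Spats2l, Igfbp2 and Fkbp10 (0.93 to 0.94). For Lmx1a these were Ildr2, Rab3gap2 and Cd81 (0.93 to 0.95), for Wnt5a Cacna2d2, Nqo2 and Nsd1 (0.89 to 0.93), and for Bmp4 Copg1, Tbccd1 and Galk2 (0.91 to 0.93).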

How the data were processed

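RNA of the pallium at E13.5 was sequenced by the authors as stranded total RNA. Abundance was deposited as TPM. The files have no header, so the unit was taken from the values, which sum to 1000000 in each library. HISAT2 and mm10 are named in the submitters' processing notes; the quantifier, the annotation, the use of strand and the sequencing depth are not given in the sources used here. Groups came from the genotype labels.

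Each library was divided by the median of its ratios to a geometric-mean library, over genes averaging 5 TPM or more and none at 0. Values were tested as log2(scaled TPM + 1) with limma 3.58.1 (R 4.3.3, trended variance), with 12 libraries in 1 fit, genes averaging 0.5 TPM or more, and Benjamini-Hochberg adjustment over all 14077. This scale understates changes of low genes. Simulated data for cKO against control held 14034 genes, with 200 changed 2-fold and a common shift of 0.25. With scaling 178 were recovered with 7 false calls, and without scaling 194 with 1372 false calls. The shift was put on every simulated cKO value, so the false calls without scaling were built in. Whether the shift of the real cKO libraries is technical was not tested. The changed genes were drawn from those averaging 5 TPM or more. Their median log2 change was 0.929 with scaling, where Lmx1a in cKO gave 0.43 for a 1.93-fold rise. Recovery at lower levels, where all midline genes except Ttr and Rspo2 stood, was not tested.

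Members and gene lists were chosen with earlier results of these data known. Named were all 9 genes, up to 3 called genes with the lowest adjusted p per list and comparison, the pallium markers, and the 3 genes most like each member; some listed genes are not reported here by name. Axin2, Otx2, Lhx2, Kl, Gm15217, Gm15222, Dlx1, Lhx9 and the ventral and diencephalic genes at 0 were named after their values were seen. Alternatives were other scalings, pseudocount, filters, the groups fitted, a replicate block and each library left out.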

Additional observations from a re-analysis of the deposited data

Results flagged for a closer look

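Within a group of 4, 1 embryo stood far from the other 3 in 2 of the 102 gene and group combinations examined, where chance alone flags about 1 in 20, or 5.1. Both concern control embryo 1. Its Ebf3 level was 1.45 TPM against 0.919 to 0.993 TPM in the other controls, a gap of 0.859 of the group's range. Its Col3a1 level was 17.97 TPM against 10.15 to 11.004 TPM in the other controls, a gap of 0.891 of the range. The same embryo was the highest control for 7 of the 9 midline genes. Without it 2 midline genes were called in cKO, with Bmp4 no longer among them (limma adjusted p = 0.0514), and 2 in dKO, where Wnt8b was added (0.0466). Over all genes tested, the fit without control embryo 1 called 946 in cKO and 1180 in dKO. With all embryos these counts were 1089 and 1256.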

How the results depend on the processing

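In TPM as deposited, the genes called numbered 4867 in cKO against control (4736 higher, 131 lower), 822 in dKO against control (323 higher, 499 lower) and 5438 in dKO against cKO (89 higher, 5349 lower), where scaled values gave 1089 (787 higher, 302 lower), 1256 (589 higher, 667 lower) and 1131 (275 higher, 856 lower). Protein-coding rescaling gave 1871 in cKO (1659 higher, 212 lower), 1281 in dKO (761 higher, 520 lower) and 1482 in dKO against cKO (197 higher, 1285 lower). As deposited, 7 midline genes were called in cKO and 3 in dKO against cKO, and pathway genes called were 30, 2 and 17 in the 3 comparisons. Without a filter, 1 midline gene was called in cKO and 0 in dKO against cKO (3 at an unadjusted limma p under 0.05), and pathway genes were 5, 3 and 1. Fits of only the 2 groups compared called 713 genes in dKO against control and 732 in dKO against cKO, with 5 midline genes in cKO, 0 in dKO against cKO (3 unadjusted) and 2 pathway genes in dKO. The cause of these moves was not tested.

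Leaving out 1 embryo gave 597 to 1495 genes in cKO, 748 to 1380 in dKO and 451 to 1164 in dKO against cKO. Midline genes called were then 1 to 4, 1 to 2 and 0 to 1, and pathway genes 3 to 12, 2 to 7 and 0 to 4. Log2 changes that turned were all small and not called: as deposited in dKO against cKO, Wnt8b -0.0894, Msx1 -0.105 and Ttr -0.0862; without dKO 3, Wnt8b -0.021, Msx1 -0.0092 and Ttr -0.20; without cKO 2, Ttr -0.17; and in dKO against control, Wnt5a -0.0061 without control 3 and -0.026 without dKO 3. Over all embryos left out these 4 changes reached at most 0.22 for Wnt5a, and in dKO against cKO 0.18 for Wnt8b, 0.23 for Msx1 and 0.55 for Ttr.

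With the replicate block, 656, 819 and 739 genes were called, with 1 midline gene in cKO (Rspo2), 0 in dKO against cKO (2 at an unadjusted limma p under 0.05), and 5, 1 and 1 pathway genes. Embryos that share a number across groups did not deviate together (r from -0.087 to 0.070), and 1 of 12 correlated best with its own number, so the numbers do not pair the embryos. TPM keeps no depth, so counting error at the low levels of Lmx1a or Bmp4 is unknown.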
